A study of Mus musculus with 28 samples.

Results

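Small nucleolar RNA (snoRNA) genes were followed through 16 total RNA libraries of mouse cells on the way to primordial germ cells (PGCs, from which sperm and eggs arise) and into culture towards meiosis. The deposited expression table lists 53564 gene symbols, of which 138 start with Snora (40 H/ACA snoRNA genes) or Snord (98 C/D snoRNA genes). The 115 genes described here (38 H/ACA and 77 C/D) had at least 1 TPM (transcripts per 1000000, the deposited unit) in at least 2 of the 16 libraries. The rule used the level and not any contrast. Of the other 23 symbols, 17 were listed at 0 in all 16 libraries and 6 reached 1 TPM in a single library, from Snora47 at 1.37 TPM to Snord93 at 16.5 TPM. Just inside the minimum, 5 genes reached 1 TPM in exactly 2 libraries (Snord67, Snord91a, Snora36b, Snord111 and Snord116l17).

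SnoRNAs are short non-coding RNAs that guide chemical modification of other RNAs, mainly ribosomal RNA. C/D snoRNAs pair with a target and bring fibrillarin to methylate a ribose, whereas H/ACA snoRNAs fold into hairpins that bring dyskerin to turn a uridine into pseudouridine. In mammals most are cut out of introns of a host gene, often one for a ribosomal protein or a non-coding RNA, and a few are transcribed from a gene of their own or act in cleavage of the ribosomal RNA precursor.

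All cells were of strain C57BL6, and the stem cell groups came from 3 kinds of embryonic stem cell. LT is wild type with long telomeres, ST is a knockout of Terc (the RNA template of telomerase) at generation 4, and RT is a line in which Terc was rescued. After 2 days as epiblast-like cells, aggregates were kept for 1 day in medium containing LIF, EGF, SCF and BMP4, and are the embryoid bodies named 1dEB. For the 1dMeioLC groups, PGC-like cells of day 4 were aggregated with somatic cells of female Actin-GFP gonads of E12.5, exposed to 3 µM retinoic acid for 1 day and sorted as GFP-negative cells. E10.5PGC cells were sorted by CD61 and SSEA1 from gonads of E10.5 embryos, and PGC-1dMeioLC cells were such PGCs after the same culture. Each of the 8 groups had 2 libraries, which no label says came from separate cultures or animals, so p-values measure the spread between libraries, which may be technical.

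Terc was listed at 0 in all 4 ST libraries and was between 0.70 and 5.39 TPM in the 8 LT and RT libraries, although it was also listed at 0 in both PGC-1dMeioLC libraries. Depth is unknown for these TPM values, and a value of 0 is given only as listed at 0. Within a group the snoRNA genes agreed between libraries with a Pearson r of 0.791 to 0.916 on the log2(TPM + 1) scale, against 0.970 to 0.985 over all 21935 genes tested (r is across genes, which are not independent replicates). Library makeup moved with the groups. Nuclear protein-coding genes held 27.1% to 29.1% of the TPM in RT-1dEB and 38.6% to 61.2% elsewhere. Their means were 38.7% in LT-1dEB, 44.2% in ST-1dEB and 54.2% to 60.7% in the 1dMeioLC groups. A ribosomal-RNA-like locus on chromosome 17 held 38.3% and 41.0% in RT-1dEB. That locus had means of 27.7% in LT-1dEB and 24.3% in ST-1dEB, against 0.957% in E10.5PGC and 1.38% to 9.18% in the 1dMeioLC groups. The makeup thus differed between the stages in every line. Because TPM adds to a fixed total, each comparison was also run after scaling every library to 1 protein-coding total (protein-coding scaling below). In bulk samples, fewer cells of a type and less RNA per cell cannot be told apart.

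The annotated sequences of 11 genes that the results below turn on show both classes. They are 2 of the C/D genes that rose in culture in every line, the 2 C/D genes with the highest mean level, 3 C/D genes of 1 host and 4 abundant or strongly changed H/ACA genes. Letters are those of GENCODE M21 transcripts on mm10, written 5′ to 3′ as DNA. Capitals mark a C box (ATGATGA or GTGATGA) and the last CTGA in C/D genes, and the terminal ACA with 3 bases after it in H/ACA genes.
Snord7: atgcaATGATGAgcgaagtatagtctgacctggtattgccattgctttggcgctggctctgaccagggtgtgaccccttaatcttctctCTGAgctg
Snord89: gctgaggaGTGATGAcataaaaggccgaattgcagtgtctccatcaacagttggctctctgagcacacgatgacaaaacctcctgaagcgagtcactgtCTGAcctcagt
Snord78: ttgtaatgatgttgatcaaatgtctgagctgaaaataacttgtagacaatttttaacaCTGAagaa
Snord52: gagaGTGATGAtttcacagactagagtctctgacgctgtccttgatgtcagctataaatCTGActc
Snord33: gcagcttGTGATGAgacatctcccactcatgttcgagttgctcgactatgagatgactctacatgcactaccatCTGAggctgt
Snord34: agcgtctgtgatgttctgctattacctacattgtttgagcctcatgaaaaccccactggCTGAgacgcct
Snord35a: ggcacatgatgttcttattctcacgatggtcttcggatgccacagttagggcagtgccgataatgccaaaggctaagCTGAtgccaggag
Snora68: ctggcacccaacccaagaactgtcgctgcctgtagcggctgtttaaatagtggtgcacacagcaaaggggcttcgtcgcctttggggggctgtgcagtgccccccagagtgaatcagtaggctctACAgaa
Snora65: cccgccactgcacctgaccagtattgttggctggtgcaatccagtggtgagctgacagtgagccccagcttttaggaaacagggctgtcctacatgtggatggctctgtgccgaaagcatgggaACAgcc
Snora52: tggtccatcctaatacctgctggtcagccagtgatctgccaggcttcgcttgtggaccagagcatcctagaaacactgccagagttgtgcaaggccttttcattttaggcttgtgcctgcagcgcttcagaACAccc
Snora73b: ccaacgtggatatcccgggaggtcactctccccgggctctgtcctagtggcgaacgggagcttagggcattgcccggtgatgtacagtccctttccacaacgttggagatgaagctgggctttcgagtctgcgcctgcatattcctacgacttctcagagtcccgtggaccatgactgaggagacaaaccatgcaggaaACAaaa
Snord7 lies at chr11:83294304-83294400 (plus strand) within AA465934, and Snord89 at chr1:39548745-39548854 (minus strand) within Gm15832. Snord33, Snord34 and Snord35a lie within Rpl13a on chromosome 7, and Snord35a occupies chr7:45126346-45126435 (minus strand).

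Among the 112 snoRNA genes with 1 record in that annotation, the C box letters stood on the strand of the RNA in 50 of 76 C/D genes (65.8%) and in 0 of 36 H/ACA genes. In windows of 79 bases from 32851 RefSeq promoters (GRCm38.p6) the same letters occurred in 0.794%. A CTGA started in the last 15 bases of 70 of 76 C/D genes (92.1%, against 6.8% of promoter windows). ACA stood 3 bases from the end of 31 of 36 H/ACA genes (86.1%, against 1.17%). On the opposite strand the C box occurred in 0 of either class, CTGA in 3 C/D genes and 1 H/ACA gene, and the terminal ACA in 1 C/D gene. The annotated lengths ran from 64 to 238 bases in C/D genes (median 79.5) and from 121 to 205 bases in H/ACA genes (median 132).

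The summed level was higher in the LT and ST embryoid bodies than in every other group, as deposited. H/ACA genes summed to 1926 and 2047 TPM in the 2 LT-1dEB libraries, 1851 and 1685 in ST-1dEB and 1005 and 1155 in RT-1dEB. They summed to 1017 and 993 TPM in E10.5PGC and to between 471 and 677 TPM in the 8 libraries of the 1dMeioLC groups. No library of a 1dMeioLC group reached the level of any other group.
C/D genes summed to 3839 and 3855 TPM in LT-1dEB, 3519 and 3383 in ST-1dEB and 1642 and 1942 in RT-1dEB. They summed to 2666 and 2406 TPM in E10.5PGC and to between 1316 and 1725 TPM in the 1dMeioLC groups, where the highest library overlapped RT-1dEB. Per 1000000 TPM of protein-coding genes the RT-1dEB mean was 3839 for H/ACA and 6364 for C/D genes, below LT-1dEB (5135 and 9945) and above E10.5PGC (1646 and 4153). On that scale the 1dMeioLC groups had means of 871 to 1053 for H/ACA and 2181 to 2875 for C/D genes, below all 4 other groups.

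**Figure D1:**
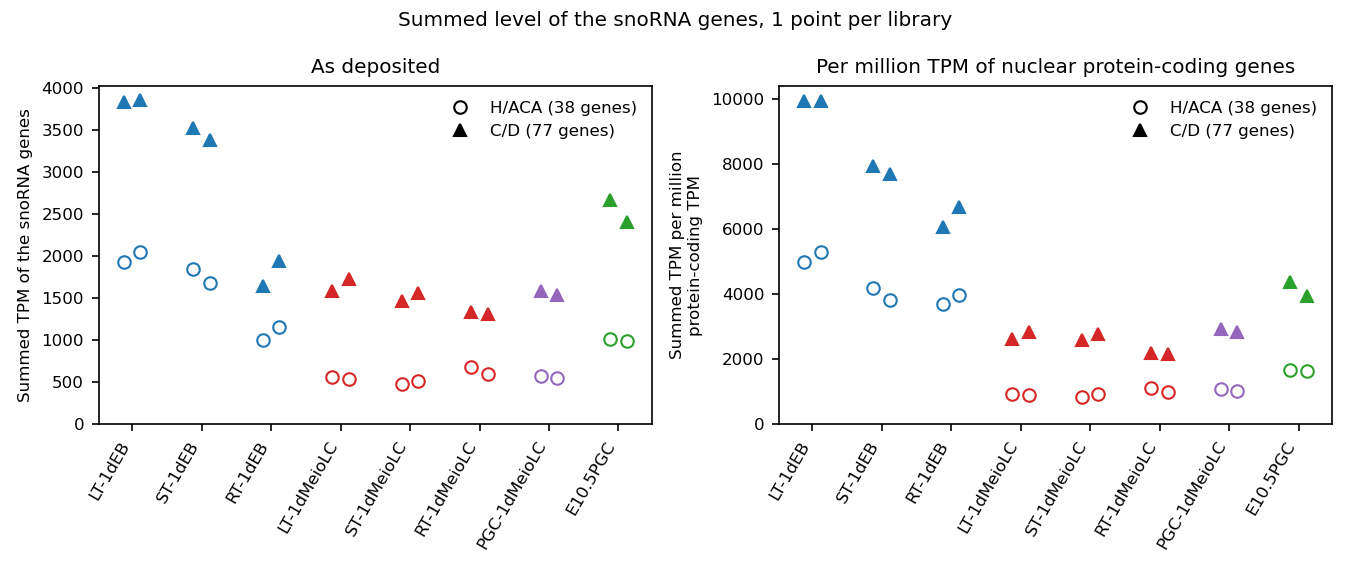
Summed TPM of the 38 H/ACA (circles) and 77 C/D (triangles) snoRNA genes in each library, as deposited (left) and per 1000000 TPM of protein-coding genes (right), with 2 libraries per group. The 1dMeioLC libraries hold 471 to 677 TPM of H/ACA genes, and RT-1dEB lies below LT-1dEB and ST-1dEB on the left and nearer to ST-1dEB on the right.

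A few genes carried much of each sum. Mean TPM over the 16 libraries was highest for Snord52 (247) and Snord78 (242) among C/D genes, followed by Snord104 (132), Snord47 (116), Snord22 (113) and Snord65 (102). Among H/ACA genes it was highest for Snora68 (179), Snora57 (117) and Snora65 (106), followed by Snora73b (92.1), Snora70 (69.8) and Snora31 (51.0). TPM is a level per length, but for RNAs this short it also depends on size selection and on the effective length used, neither of which is known, so the order between genes is that of the deposited values only. At the other end, 53 of the 115 genes had a mean under 10 TPM, and 39 were above 0 in all 16 libraries. The number listed at 0 in both libraries was 6 in LT-1dEB, 13 in ST-1dEB, 11 in RT-1dEB and 20 in E10.5PGC, and 27 to 35 in the 1dMeioLC groups, with most in ST-1dMeioLC.

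From 1dEB to 1dMeioLC in the wild-type LT line, 21 of 38 H/ACA genes fell and 0 rose, and 34 of 77 C/D genes fell and 3 rose, at an adjusted p under 0.05 (limma on log2(TPM + 1), Benjamini-Hochberg over 21935 genes). Together 50.4% of the snoRNA genes were called, against 64.5% of all genes, of which 40.4% rose and 24% fell. The median log2 difference was -1.68 over H/ACA genes and -1.38 over C/D genes, against 0.19 over all genes. With protein-coding scaling 70 fell and 3 rose, and over all genes the direction turned, with 27.4% higher and 37.4% lower. The medians on that scale were -2.09 over the snoRNA genes and -0.14 over all genes. The other small lists of cell markers moved too: 5 gonadal somatic markers summed to between 4.46 and 8.83 TPM in 1dEB and between 88.0 and 142 TPM in the 1dMeioLC groups, and 4 erythroid markers to between 0.27 and 1.23 TPM and between 451 and 1586 TPM. Their part in the snoRNA differences was not tested.

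**Figure D2:**
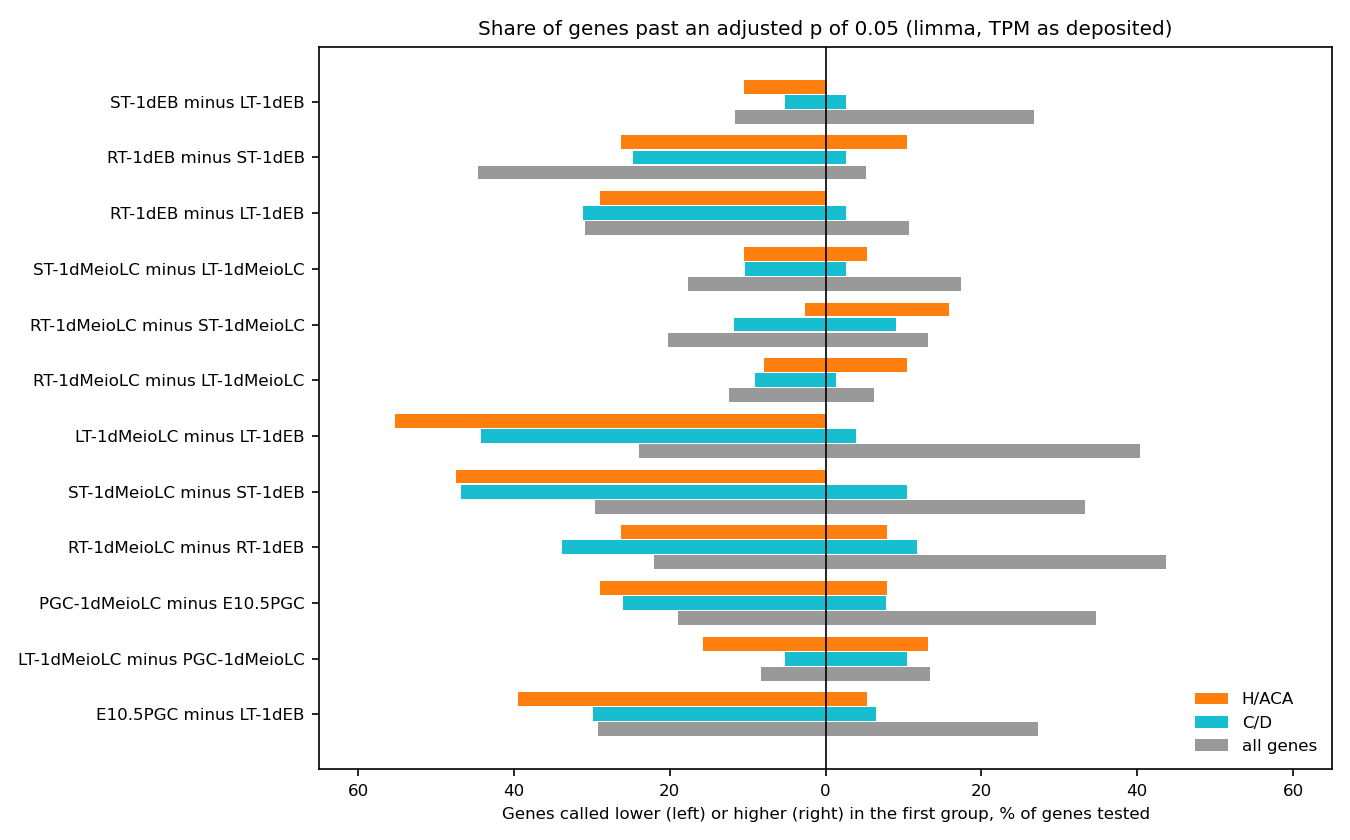
Share of the 38 H/ACA genes, 77 C/D genes and 21935 genes in all that passed an adjusted p of 0.05 in each of 12 comparisons of TPM as deposited, lower in the first group to the left of 0 and higher to the right. In the stage comparisons the snoRNA bars lie mostly to the left and the bars of all genes mostly to the right, as in LT, where 55 snoRNA genes fell and 3 rose, whereas with protein-coding scaling (not drawn) more of all genes were lower than higher in LT, ST and RT.

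Several of the genes that fell had been among the better expressed snoRNA genes of the embryoid bodies. Snora68 was at 294 and 410 TPM in LT-1dEB and at 79.1 and 67.1 TPM in LT-1dMeioLC. Its difference was -2.24 (SE 0.18, limma adjusted p = 1.3e-06). It was also lower after culture in ST (329 and 251 against 67.1 and 71.7 TPM) and in RT (247 and 326 against 123 and 115 TPM), with no overlap in any line.

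Snora73b, a U17 RNA that acts in processing of small-subunit rRNA and is carried by Snhg3, was at 229 and 269 TPM in LT-1dEB and 58.1 and 35.0 TPM in LT-1dMeioLC. It fell by 2.44 on the log2 scale (SE 0.24, limma adjusted p = 5.7e-06). Its H/ACA neighbour in the same host, Snora73a, had 31.4 and 63.2 TPM against 6.56 and 11.1 TPM (difference -2.25, SE 0.91). Its limma adjusted p was 0.05, and without LT-1dEB replicate 1 or 2 or LT-1dMeioLC replicate 1 or 2 it was 0.066, 0.22, 0.19 and 0.084, so that call rests on every library. Both are U17 RNAs, and reads may be split between them.

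Snora65, carried by Rpl12, had 186 and 208 TPM in LT-1dEB and 45.2 and 50.1 TPM in LT-1dMeioLC (difference -2.02, SE 0.27, limma adjusted p = 6.1e-05). Snora52, carried by Rplp2, was above 7 TPM in all 6 1dEB libraries (18.5 and 23.6 in LT, 14.3 and 7.17 in ST, 16.2 and 33.7 in RT) and listed at 0 in the other 10 libraries. Against a group listed at 0 no fold is given, and the limma adjusted p was 4.8e-07 in LT and 3.1e-07 in RT. The test uses a spread per gene shared by all groups, to which pairs of libraries at 0 add nothing. Such p-values, here and for other genes listed at 0 in several groups, can therefore be too small. Snora28, carried by Eif5, was at 27.6 and 26.9 TPM in LT-1dEB and listed at 0 in both LT-1dMeioLC libraries (limma adjusted p = 3e-05).

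Of the 4 measured C/D genes carried by the ribosomal protein gene Rpl13a, 3 fell in every line. These RNAs (U32 to U35) are also known for a role in the response to lipid and oxidative stress. Snord34 was at 164 and 134 TPM in LT-1dEB and at 4.27 and 9.31 TPM in LT-1dMeioLC (difference -4.34, SE 0.71, limma adjusted p = 0.00029). Snord33 was at 102 and 89.9 TPM against 3.56 and 7.76 TPM (difference -3.94, SE 0.57, limma adjusted p = 0.00012). Snord35a was at 143 and 180 TPM against 28.2 and 18.1 TPM (difference -2.77, SE 0.38, limma adjusted p = 8.5e-05). In these 3 genes every 1dEB library of LT, ST and RT lay above every 1dMeioLC library. The other gene of this host, Snord32a, was at 42.3 and 32.5 TPM in LT-1dEB against 5.4 and 0 TPM in LT-1dMeioLC (limma adjusted p = 0.008), and at 32.5 and 28.9 TPM against 18.8 and 17.8 TPM in RT, where it did not pass the test (difference -0.71, SE 1.07, limma adjusted p = 0.59). Rpl13a itself differed by -0.60 (SE 0.05) in LT, and the difference between it and these genes was not tested. Snord57, carried by Nop56 (a core protein of C/D particles), was at 27.1 and 27.5 TPM in LT-1dEB and listed at 0 in both LT-1dMeioLC libraries (limma adjusted p = 5.1e-08).

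The 3 snoRNA genes that rose in LT were C/D genes and rose in ST and RT too. Snord13 has its own promoter and guides acetylation, not methylation, of small-subunit rRNA. It was listed at 0 in all 6 1dEB libraries and was at 14.8 and 25.1 TPM in LT-1dMeioLC, 16.9 and 19.8 in ST-1dMeioLC and 22.6 and 14.2 in RT-1dMeioLC. The limma adjusted p was 1.1e-05 in LT, 1.5e-05 in ST and 1.3e-05 in RT, and no fold is given against groups at 0.

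Snord89, within Gm15832, was listed at 0 or at 1.63 TPM in LT-1dEB and was at 21.7 and 29.6 TPM in LT-1dMeioLC, a difference of 4.02 (SE 0.49, limma adjusted p = 3.2e-05). In ST it was at 3.56 and 2.23 TPM against 12 and 26.7 TPM, and in RT it was listed at 0 against 23.7 and 10.8 TPM. Snord7, a guide for the spliceosomal U6 RNA that lies within AA465934, was at 8.03 and 13.0 TPM in LT-1dEB and 91.4 and 134 TPM in LT-1dMeioLC. Its difference was 3.31 (SE 0.49, limma adjusted p = 0.00013) in LT, 3.01 (limma adjusted p = 0.00028) in ST and 2.11 (limma adjusted p = 0.0029) in RT, where protein-coding scaling ended the call (1.04, limma adjusted p = 0.077).

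**Figure D3:**
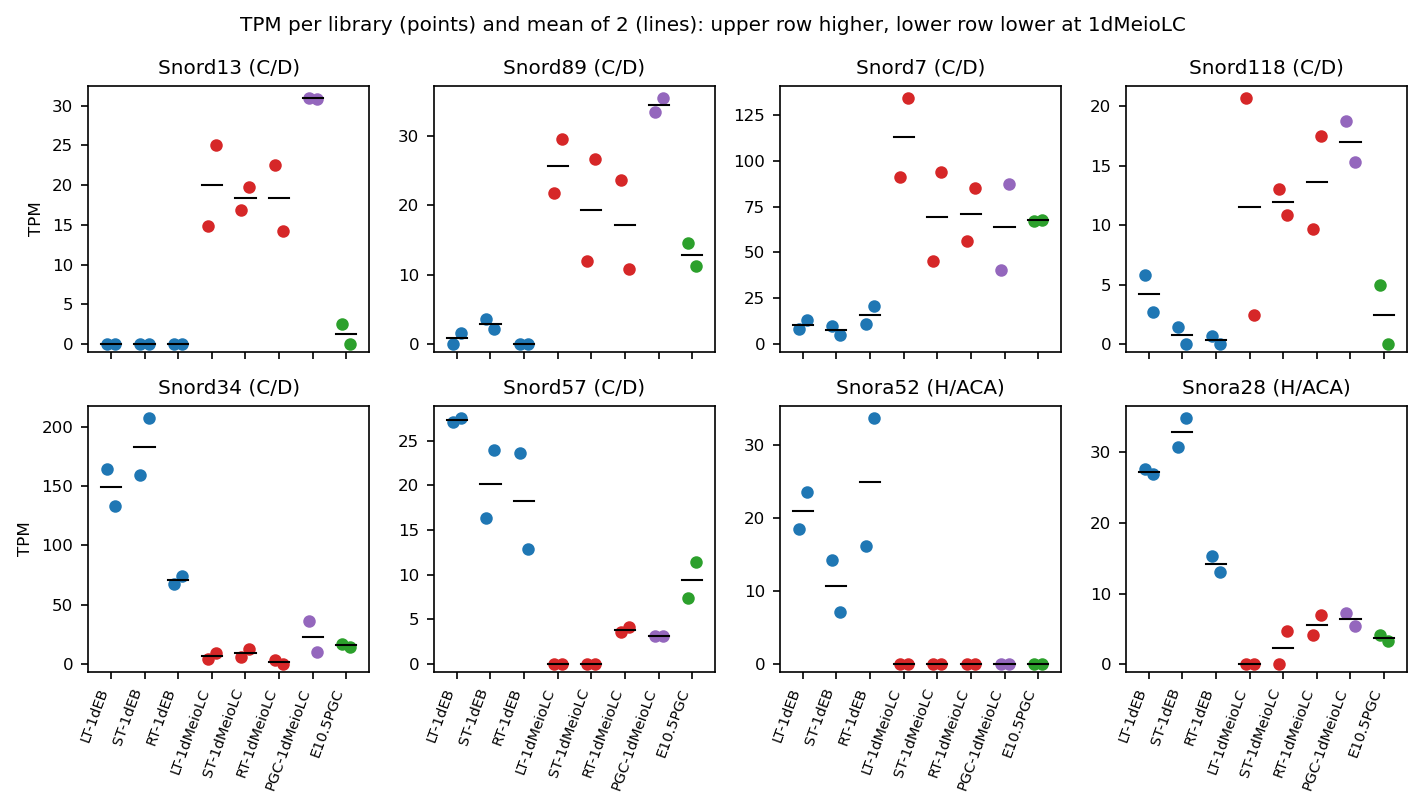
TPM of 8 snoRNA genes in each of the 16 libraries (points) with the mean of 2 (lines), 1dEB in blue, 1dMeioLC in red, PGC-1dMeioLC in purple and E10.5PGC in green. Snord13 is at 0 in the 6 1dEB libraries and at 14.2 TPM or more in the 8 libraries of 1dMeioLC groups, while Snora52 is above 0 in the 6 1dEB libraries alone.

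The lists of snoRNA genes that fell overlapped between the lines. In ST, 18 H/ACA genes fell and 0 rose, and 36 C/D genes fell and 8 rose (53.9% of the snoRNA genes called, against 62.9% of all genes, 33.3% higher and 29.6% lower). In RT, 10 H/ACA genes fell and 3 rose, and 26 C/D genes fell and 9 rose (41.7% against 65.7% of all genes, 43.7% higher and 22% lower). With protein-coding scaling the RT counts became 56 lower and 5 higher, against 36 and 12 as deposited, and over all genes 45.3% were then lower and 23.4% higher. In ST the scaled counts were 61 lower and 7 higher, beside 37.6% lower and 25.6% higher over all genes. The medians were -1.56 in ST and -0.70 in RT, against 0.00 and 0.30 over all genes. Of the 55 genes that fell in LT and the 54 that fell in ST, 40 were the same (72.7% and 74.1% of each list). Of the 36 that fell in RT, 29 also fell in LT (80.6% of the RT list and 52.7% of the LT list) and 24 also fell in ST (66.7% and 44.4%). In all 3 lines 23 genes fell, among them Snora52, Snora65, Snora68, Snora73b, Snord22, Snord33, Snord34, Snord35a, Snord47 and Snord57. No library is shared between these 3 comparisons. The same overlap was not counted over all genes, so these shares have no background to set them against.

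Among other genes known for cleavage of the rRNA precursor, Snord22 (U22) fell in each line. It was at 235 and 220 TPM in LT-1dEB against 69.6 and 62.1 in LT-1dMeioLC, at 232 and 181 against 24.4 and 23.3 in ST, and at 116 and 145 against 68.3 and 44.6 in RT. Snord118 (U8), which acts in maturation of the large-subunit rRNA and has its own promoter, went the other way in ST and RT. It was at 1.45 and 0 TPM in ST-1dEB and 13.0 and 10.9 TPM in ST-1dMeioLC (difference 3.04, SE 0.93, limma adjusted p = 0.015), a call that ended without ST-1dEB replicate 2 (limma adjusted p = 0.1) or ST-1dMeioLC replicate 1 (0.063). In RT it was at 0.70 and 0 TPM against 9.65 and 17.5 TPM (difference 3.43, SE 0.93, limma adjusted p = 0.0074), and without RT-1dEB replicate 2 the limma adjusted p was 0.058. In LT, with 5.77 and 2.66 TPM against 20.7 and 2.41 TPM, the groups overlapped (limma adjusted p = 0.49). Of the 3 measured copies of Snord14 (U14) in the heat shock gene Hspa8, Snord14e was at 73.6 and 54.0 TPM in LT-1dEB against 4.43 and 3.62 TPM in LT-1dMeioLC (limma adjusted p = 0.0017), and with a pseudocount of 0.1 TPM its limma adjusted p was 0.068. In LT Snord14c and Snord14d had limma adjusted p of 0.099 and 0.07. In ST, Snord14c was at 20.5 and 5.71 TPM in 1dEB and Snord14e at 50.0 and 57.3 TPM, and both were listed at 0 in ST-1dMeioLC (limma adjusted p = 0.0028 and 7.3e-05). Snord14d did not pass there, with means of 20.2 TPM in ST-1dEB and 12.8 TPM in ST-1dMeioLC (limma adjusted p = 0.38). Nor did Snord14a, which is not 1 of those 3 copies, with means of 25.9 and 21.9 TPM (limma adjusted p = 0.77). Differences between the copies were not tested. Snora74a, also on the list of rRNA cleavage genes, was listed at 0 in RT-1dEB and had a mean of 3.41 TPM in RT-1dMeioLC (limma adjusted p = 0.01). In ST it did not pass, with means of 2.12 TPM in ST-1dEB and 4.11 TPM in ST-1dMeioLC (limma adjusted p = 0.43).

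Of the 6 C/D genes with the highest mean level, 5 passed the test as lower in LT and Snord52 did not pass. Snord65 was at 281 and 277 TPM in LT-1dEB against 56.0 and 27.1 TPM in LT-1dMeioLC (difference -2.81, SE 0.49, limma adjusted p = 0.0005), and Snord47 at 177 and 210 TPM against 70.5 and 63.5 TPM (difference -1.51, SE 0.33, limma adjusted p = 0.0019). Snord22 and Snord104 are described with the rRNA cleavage genes and the genes with no annotated host. Snord52 was at 257 and 232 TPM in LT-1dEB and 242 and 291 TPM in LT-1dMeioLC, a difference of 0.12 (SE 0.16, limma adjusted p = 0.52). Snord78, in Gas5, was at 310 and 316 TPM against 209 and 202 TPM, a difference of -0.60 (SE 0.24, limma adjusted p = 0.049). That call ended without any 1 of the 4 libraries, with limma adjusted p of 0.12 and 0.14 without LT-1dEB replicates 1 and 2 and of 0.12 and 0.15 without LT-1dMeioLC replicates 1 and 2. With protein-coding scaling both were lower, Snord52 by -0.52 (limma adjusted p = 0.014) and Snord78 by -1.25 (limma adjusted p = 0.00073).

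Of the 115 snoRNA genes, 33 lie in ribosomal protein genes, 44 in other protein-coding genes and 30 in non-coding host genes. Another 5 have no annotated host on their strand (Snord13, Snord104, Snord118, Snora17 and Snora57), and 3 have more than 1 place. A host here is a GENCODE M21 gene that spans the snoRNA gene on its strand, so hosts missing from that annotation are not counted. The 106 genes with a tested host lie in 76 hosts, so snoRNA genes of 1 host are not independent. In LT, 41 of them fell with a host that fell, 8 fell with a host that rose, 2 fell with a host that was not called, and 2 rose with a host that rose (Snord7 and Snord89). In 30 the host fell and the snoRNA gene was not called. With protein-coding scaling 63 fell with their host and 1 fell with a host that rose. AA465934 rose from a mean of 5.92 TPM to 67.2 TPM, a difference of 3.30 (SE 0.12), next to 3.31 for its Snord7. Gm15832 rose by 1.02 (SE 0.10), next to 4.02 for Snord89. Tpt1, the host of Snora31, rose by 0.51 (SE 0.04) while Snora31 went from 86.9 and 119 TPM to 20.7 and 15 TPM. With protein-coding scaling Tpt1 was lower, by -0.14 (limma adjusted p = 0.013).

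By kind of host, 18 of 33 snoRNA genes in ribosomal protein genes fell in LT (median -1.52), 15 of 44 in other protein-coding genes (median -1.43) and 18 of 30 in non-coding hosts (median -1.91). Of the 60 that overlap an exon of another gene on their strand 34 fell, and of the 52 that do not 20 fell and 3 rose. The sources used here do not give how overlapping reads were shared between host and snoRNA.

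**Figure D4:**
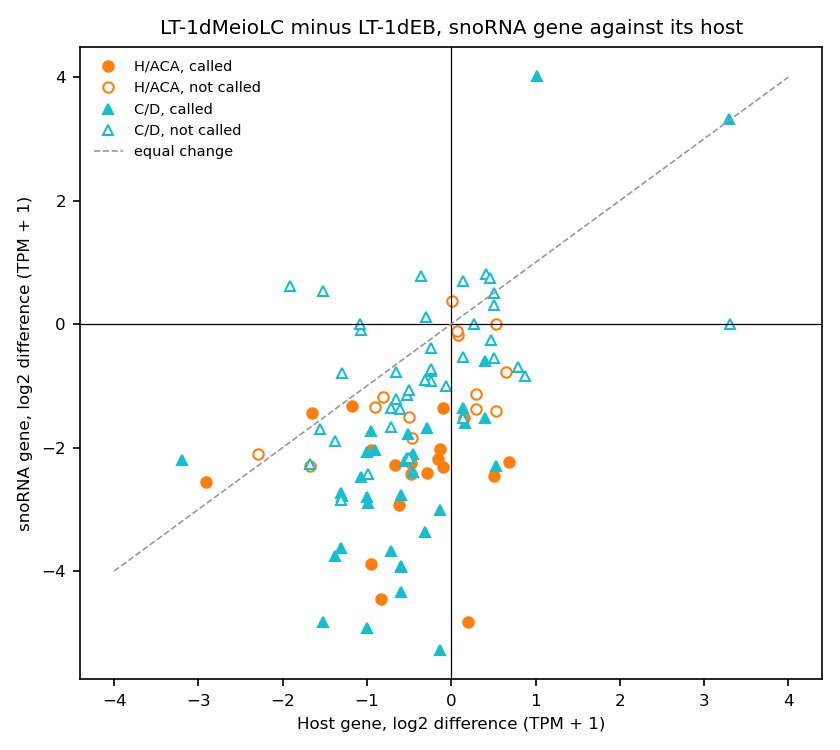
Difference between LT-1dMeioLC and LT-1dEB on the log2(TPM + 1) scale for each snoRNA gene (vertical) against its host gene (horizontal), with filled symbols past an adjusted p of 0.05 and a dashed line of equal change. Most filled symbols lie below the line, and the 2 filled triangles above 0 are Snord7 and Snord89.

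Among snoRNA genes called after culture of PGCs from embryos, more fell than rose. From E10.5PGC to PGC-1dMeioLC, 11 H/ACA genes fell and 3 rose, and 20 C/D genes fell and 6 rose. That is 34.8% called, against 53.6% of all genes (34.7% higher and 18.9% lower), and the median was -0.46 against 0.13 over all genes. Snora68 was at 219 and 190 TPM in E10.5PGC and 42.1 and 38.5 TPM in PGC-1dMeioLC (difference -2.31, SE 0.18, limma adjusted p = 1.8e-06). Snord35b was at 64.3 and 80.5 TPM in E10.5PGC and listed at 0 in both PGC-1dMeioLC libraries (limma adjusted p = 3.4e-07). Snord73a, in Rps3a1, was at 23.5 and 42.4 TPM and then listed at 0 in both (limma adjusted p = 0.0012), while Rps3a1 differed by -0.03 (SE 0.04). In ribosomal protein hosts 16 of 33 snoRNA genes fell, in other protein-coding hosts 5 of 44 and in non-coding hosts 9 of 30. With protein-coding scaling these counts were 12, 4 and 9. By level, 26 of 62 genes with a mean of at least 10 TPM fell, against 5 of 53 below it. The part of level in the counts by host was not tested.

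Of the 5 snoRNA genes with no annotated host on their strand, 3 rose in cultured PGCs. Snord13 was at 2.56 and 0 TPM in E10.5PGC and 30.9 TPM in both PGC-1dMeioLC libraries (difference 4.08, SE 0.46, limma adjusted p = 2.8e-05). Snord104 was at 57.1 and 53.0 TPM against 177 and 141 TPM (difference 1.51, SE 0.26, limma adjusted p = 0.00064). Snord118 was at 4.93 and 0 TPM against 18.7 and 15.3 TPM (difference 2.88, limma adjusted p = 0.023), and without E10.5PGC replicate 2 or PGC-1dMeioLC replicate 1 or 2 its limma adjusted p was 0.21, 0.09 and 0.066. Snora57 fell, from 146 and 199 TPM in E10.5PGC to 79.1 and 71.3 TPM (difference -1.17, SE 0.18, limma adjusted p = 0.00029), and Snora17 did not pass the test (limma adjusted p = 0.46). Snord104 went the other way in LT, with 256 and 267 TPM in LT-1dEB against 109 and 158 TPM in LT-1dMeioLC (difference -0.99, SE 0.26, limma adjusted p = 0.007, but 0.07 without LT-1dMeioLC replicate 1). Snord7, at 67.3 and 68.0 TPM in E10.5PGC and 40.3 and 87.5 TPM after culture, did not pass the test (limma adjusted p = 0.82).

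E10.5 PGCs and LT embryoid bodies differed in 45 of the 115 snoRNA genes (39.1%, against 56.5% of all genes, 27.2% higher and 29.2% lower), with 15 H/ACA genes lower and 2 higher in PGCs and 23 C/D genes lower and 5 higher. Without LT-1dEB replicate 1 the count was 29. With protein-coding scaling 52 were lower and 3 higher, against 38 and 7 as deposited, beside 44.9% of all genes lower and 15.9% higher on that scale. Snora52 was listed at 0 in both PGC libraries. Snord1a was at 0 and 2.78 TPM in E10.5PGC and 13.2 and 17 TPM in LT-1dEB (difference -3.04). Snord89, at 14.5 and 11.2 TPM, and Snord7, at 67.3 and 68.0 TPM, were higher in PGCs by 3.09 (limma adjusted p = 0.00029) and 2.61 (limma adjusted p = 0.00087). Both thus had levels in PGCs above all 6 1dEB libraries, while Snord13 had 1 PGC library listed at 0.

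Between the lines at 1dEB, few snoRNA genes passed the test between ST and LT, and those that did not pass may still differ. There 4 H/ACA genes were lower in ST and 0 higher, and 4 C/D genes were lower and 2 higher. This is 8.7%, against 38.4% of all genes (26.7% higher and 11.6% lower), and without ST-1dEB replicate 2 the count was 6 and not 10. With protein-coding scaling 12 were lower and 2 higher, beside 19.3% of all genes lower and 22.2% higher. Of the named calls of this comparison (higher group at 10 TPM or more), that of Snord64, described below, alone held under each alternative run. Calls below that level were not followed in this way. Among them was Snora30, listed at 0 in ST-1dEB against a mean of 7.90 TPM in LT-1dEB (limma adjusted p = 0.00012). Fibroblast and stroma markers (5 genes) summed to 14.6 and 15.7 TPM in LT-1dEB and 265 and 274 TPM in ST-1dEB, and their part in these differences was not tested. Snora73b was at 218 and 159 TPM in ST-1dEB and 229 and 269 TPM in LT-1dEB (difference -0.41, SE 0.24, limma adjusted p = 0.21). Snord123, in Snhg18, was at 19.3 and 10.4 TPM in ST-1dEB and listed at 0 in LT-1dEB (limma adjusted p = 0.027), beside a host mean of 35.8 and 5.42 TPM. Without ST-1dEB replicate 1 or 2 or LT-1dEB replicate 1 or 2 that p was 0.13, 0.066, 0.097 and 0.096.

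RT-1dEB stood lower for more genes. Against LT, 11 H/ACA genes were lower and 0 higher, and 24 C/D genes were lower and 2 higher (32.2%, against 41.6% of all genes, 10.7% higher and 30.9% lower). The count of 37 became 21 with protein-coding scaling, 20 without RT-1dEB replicate 1 and 21 without RT-1dEB replicate 2. Against ST, 10 H/ACA genes were lower and 4 higher, and 19 C/D genes were lower and 2 higher (30.4%, against 49.7% of all genes, 5.14% higher and 44.6% lower). With protein-coding scaling that split was 14 lower and 10 higher, against 29 and 6, and over all genes 17.6% were then lower and 19.5% higher. Snora26, in Dancr, was at 8.98 and 7.64 TPM in RT-1dEB, 53.4 and 71.1 in ST-1dEB and 78.9 and 59.5 in LT-1dEB. It was lower in RT than in ST by -2.75 (SE 0.47, limma adjusted p = 0.00064) and than in LT by -2.90 (limma adjusted p = 0.00061). Snora73b was at 66.6 and 80.2 TPM, lower than in LT by -1.75 (SE 0.24, limma adjusted p = 0.00018). Snord99, in Snhg12, was at 37.7 and 32.5 TPM in RT-1dEB, below 172 and 146 in ST-1dEB and 240 and 199 in LT-1dEB.

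At 1dMeioLC the ST line differed from both others in a few genes. Against LT, 4 H/ACA genes were lower and 2 higher, and 8 C/D genes were lower and 2 higher (13.9%, against 35.1% of all genes, 17.4% higher and 17.7% lower). The count of 16 became 9 without LT-1dMeioLC replicate 2, and 9 without a filter on low values. Snord55 was listed at 0 in both ST-1dMeioLC libraries and was at 21.4 and 57.7 TPM in LT and 39.6 and 41.2 TPM in RT. The limma adjusted p was 0.00044 against LT and 0.00039 for RT against ST. Snord60 was listed at 0 in both ST libraries, against 12.1 and 16.7 TPM in LT (limma adjusted p = 0.0053). Snord99 was at 5.94 and 11.9 TPM in ST, 48.5 and 88.0 in LT and 49.3 and 52.0 in RT (ST against LT -2.81, SE 0.45, limma adjusted p = 0.001). Snora33, in Rps12, was at 0 and 2.28 TPM in ST, 22.8 and 7.58 in LT and 26.3 and 13.8 in RT (ST against LT -2.98, SE 0.59, limma adjusted p = 0.0032). In Snord55, Snord99 and Snora33, no ST library overlapped either line, which the rule that named them required, so it adds no support. The host of Snord99, Snhg12, differed by -0.44 (SE 0.10) and the host of Snora33, Rps12, by -0.27 (SE 0.07).

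The markers of the sorted cells also differed between these groups. The 6 PGC markers summed to 86.9 and 88.5 TPM in ST-1dMeioLC, 587 and 612 in LT-1dMeioLC and 413 and 439 in RT-1dMeioLC. Each of the 6 was lower in ST than in LT. Against RT, Prdm1 was higher in ST (2.92 and 3.10 against 1.78 and 1.43 TPM) and Tfap2c overlapped. Most of the LT and RT sums was Dppa3, at 27.6 and 29.6 TPM in ST, 524 and 495 in LT and 347 and 321 in RT. The 3 meiosis markers summed to 410 and 417, 1054 and 1074, and 918 and 965 TPM in the same order. The 4 erythroid markers summed to 1576 and 1586 TPM in ST, 1220 and 1263 in LT and 786 and 800 in RT. Most of each sum was Hba-a1 (1465 and 1468 TPM in ST), and Hba-a2 had the same order. Hbb-bt and Hbb-bs went the other way between ST and LT. Hbb-bt was at 15.6 and 12.1 TPM in ST against 18.6 and 22.2 in LT, and Hbb-bs at 67.0 and 55.8 against 81.8 and 85.3. The part of these differences in the snoRNA values was not tested.

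RT and ST 1dMeioLC differed in 7 H/ACA genes (6 higher and 1 lower in RT) and 16 C/D genes (7 higher and 9 lower), which is 20% against 33.3% of all genes (13.1% higher and 20.2% lower). Without ST-1dMeioLC replicate 1 the count of 23 became 14. Snora21, in Rpl23, was at 20.9 and 19.4 TPM in RT, 3.21 and 2.14 in ST and 2.18 and 2.38 in LT. It was higher in RT than in ST by 2.54 (SE 0.44, limma adjusted p = 0.0017) and than in LT by 2.69 (limma adjusted p = 0.0028), while Rpl23 differed from LT by 0.01 (SE 0.05). Snord35a was lower in RT, at 8.69 and 6.57 TPM, than in ST, at 58.6 and 35.9 TPM (-2.45, SE 0.38, limma adjusted p = 0.00092). RT and LT differed in 15 snoRNA genes (13.0%, against 18.6% of all genes, 6.2% higher and 12.4% lower), a count that became 8 without RT-1dMeioLC replicate 2, 7 without LT-1dMeioLC replicate 1 and 4 without LT-1dMeioLC replicate 2.

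**Figure D5:**
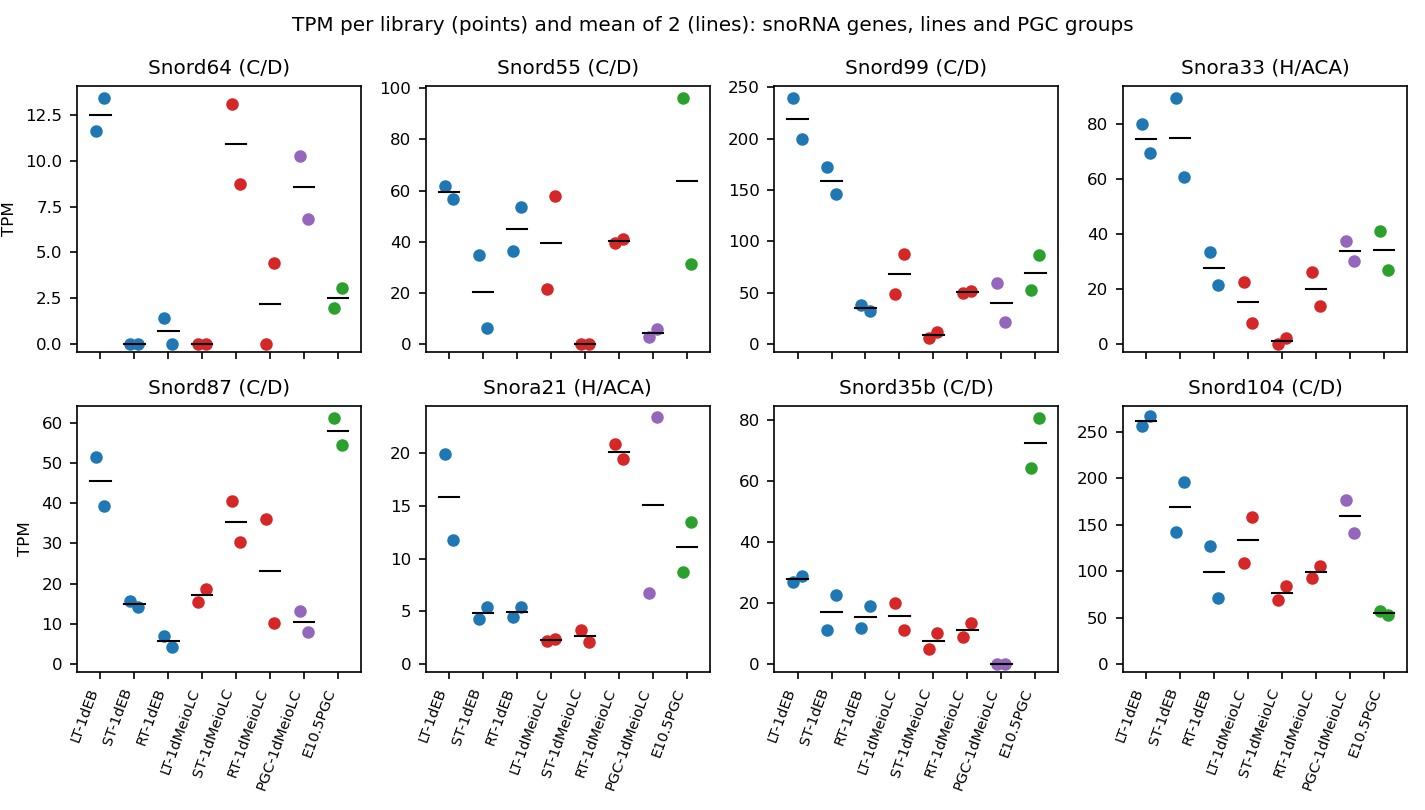
TPM of 8 snoRNA genes in each of the 16 libraries (points) with the mean of 2 (lines), coloured as in the plot of genes that changed between stages. Snord55 is at 0 in both ST-1dMeioLC libraries and Snord35b in both PGC-1dMeioLC libraries, and Snord64 is at 0 in ST-1dEB and in LT-1dMeioLC.

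Whether the ST minus LT effect changed between the stages was tested as an interaction. It passed in 3 H/ACA genes (2 higher and 1 lower) and 9 C/D genes (4 higher and 5 lower), which is 10.4% against 38.6% of all genes (12.2% higher and 26.4% lower). With protein-coding scaling 11 were higher and 4 lower, beside 19.6% and 19.2% of all genes. Snord22 is a case with values in all libraries (ST-1dEB 232 and 181, LT-1dEB 235 and 220, ST-1dMeioLC 24.4 and 23.3, LT-1dMeioLC 69.6 and 62.1 TPM), and its effect was lower at 1dMeioLC by -1.28 (SE 0.27, limma adjusted p = 0.004). Snord87, in Snhg6, went from 51.5 and 39.3 to 15.5 and 18.7 TPM in LT and from 15.8 and 14.1 to 40.4 and 30.4 TPM in ST (interaction 2.53, limma adjusted p = 0.011). For RT minus ST the interaction passed in 14 H/ACA and 18 C/D genes, 23 higher and 9 lower, which is 27.8% against 42.2% of all genes (34.6% higher and 7.65% lower). With protein-coding scaling 13 were higher and 12 lower, beside 12.9% and 23.1% of all genes. Snora33 and Snord99 had interactions of 4.89 (limma adjusted p = 0.00092) and 4.60 (limma adjusted p = 0.00025).

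After culture, LT cells and PGCs differed in 11 H/ACA genes (5 higher and 6 lower in LT) and 12 C/D genes (8 higher and 4 lower), which is 20% against 21.7% of all genes (13.4% higher and 8.25% lower). The count of 23 became 14 and 10 without LT-1dMeioLC replicates 1 and 2, 14 without PGC-1dMeioLC replicate 1 and 15 without a filter on low values. Snora9 was at 14.6 and 12.2 TPM in LT-1dMeioLC and 1.73 and 0 TPM in PGC-1dMeioLC (difference 3.12). Snord42b was at 73.6 and 75.5 TPM against 26.6 and 13.3 TPM (difference 1.93). Snora21 was lower in LT, at 2.18 and 2.38 TPM against 6.71 and 23.4 TPM (difference -2.07, limma adjusted p = 0.0085).

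Snord64, Snord107 and the Snord116 copies lie in the imprinted Snurf-Snrpn region of chromosome 7, whose RNAs are made from the paternal copy, and no gene of the Snord113, Snord114 or Snord115 families passed the minimum. Snord64, at chr7:59978808-59978874 (minus strand) within Gm38393, was at 11.6 and 13.4 TPM in LT-1dEB and listed at 0 in both ST-1dEB libraries (limma adjusted p = 0.00088). It was at 1.41 and 0 TPM in RT-1dEB. At 1dMeioLC the order was turned, with 0 in both LT libraries, 13.1 and 8.76 TPM in ST (limma adjusted p = 0.002 against LT) and 0 and 4.41 TPM in RT. The interaction of ST minus LT with the stage had a limma adjusted p of 0.00014. E10.5PGC had 1.99 and 3.07 TPM and PGC-1dMeioLC had 10.3 and 6.84 TPM.
The host Gm38393 had means of 52.0 TPM in LT-1dEB and 25.7 in ST-1dEB (difference -0.99, SE 0.08) and 19.4 and 21.7 TPM in LT-1dMeioLC and ST-1dMeioLC (difference 0.15, SE 0.08, limma adjusted p = 0.19). Snord107, in the same host, did not differ by the test between ST and LT at either stage, with 14.0 and 14.0 against 30.6 and 25.7 TPM at 1dEB (limma adjusted p = 0.54) and 6.28 and 0 against 2.13 and 18.6 TPM at 1dMeioLC (limma adjusted p = 0.3). Snord116l17, within Snhg14, was above 0 in the 2 RT-1dEB libraries alone, at 1.01 and 3.93 TPM.

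The 9 core proteins of snoRNA particles, 4 of which (Dkc1, Nhp2, Nop10 and Gar1) also belong to telomerase, moved with the stage. In LT, 7 fell, 1 rose and 1 was not called (median -0.91 against 0.19 over all genes), and with protein-coding scaling 8 fell and 0 rose. Rrp9, a protein of the U3 particle, went from 39.5 and 41.9 TPM in LT-1dEB to 4.38 and 5.11 TPM in LT-1dMeioLC. Fibrillarin (Fbl), the methylase of C/D particles, went from 77.7 and 69.8 to 32.2 and 32.4 TPM, and Gar1, of H/ACA particles, from 39.0 and 46.4 to 13.0 and 14.4 TPM. Snu13 rose, from 119 and 112 to 185 and 187 TPM. In cultured PGCs all 9 fell (median -1.12), beside 18.9% of all genes lower and 34.7% higher. In ST against LT at 1dEB 7 of 9 were lower (median -0.31), beside 11.6% of all genes lower and 26.7% higher. At 1dMeioLC 2 were lower and 2 higher, beside 17.7% of all genes lower and 17.4% higher. In RT against ST at 1dEB 6 were lower and 1 higher, beside 44.6% of all genes lower and 5.14% higher. With protein-coding scaling that became 0 lower and 6 higher, beside 17.6% of all genes lower and 19.5% higher.

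Of 17 tested genes for assembly and maturation of the particles, 9 fell and 2 rose in LT between the stages (15 and 0 with protein-coding scaling), and 12 fell and 2 rose in cultured PGCs. Of 41 tested host genes in a list chosen by name, 27 fell and 7 rose in LT between the stages, and 19 fell and 13 rose in cultured PGCs. Beside these counts, 24% of all genes fell and 40.4% rose in LT, and 18.9% fell and 34.7% rose in cultured PGCs. With protein-coding scaling 35 hosts fell and 3 rose in LT, where 37.4% of all genes fell and 27.4% rose. In ST against LT at 1dEB 12 hosts were higher and 11 lower, which became 8 and 19 with protein-coding scaling, beside 26.7% and 11.6% of all genes as deposited and 22.2% and 19.3% scaled. Other small structural RNAs (21 tested) showed 3 higher and 4 lower in LT between the stages, a count of 7 that became 4 without LT-1dMeioLC replicate 1 and 3 without replicate 2. The largest rise among them was of Rpph1, the RNA of ribonuclease P, from 48.9 and 37.2 TPM in LT-1dEB to 1237 and 1267 TPM in LT-1dMeioLC. It was at 3332 and 3799 TPM in RT-1dMeioLC.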

How the data were processed

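Total RNA of 16 libraries in 8 groups of 2 was analysed from a series of 28 samples in 14 groups. The authors deposited TPM values per gene, and each column adds to 1000000. Per the submitters' processing notes the tools were Bowtie2, HISAT2, RSEM, R 3.4.2 and DESeq2 with the build mm10, without roles or order. The sources used here do not give size selection or the use of strand. Another 12 columns of the table share names and were not used, and 6 sample titles had no column of their own.

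The 115 snoRNA genes and all lists were chosen with earlier results of these data known. Genes with at least 1 TPM in 2 libraries (21935) were fitted as log2(TPM + 1) with limma 3.58.1 (R 4.3.3) as 8 group means with a trended prior (8 residual and 2.23 prior degrees of freedom). p-values are two-sided, Benjamini-Hochberg adjusted over 21935 genes, with a threshold of 0.05. A fold on this scale understates the change of low genes. Tables were made with Python 3.11.15 and pandas 2.3.3. The fit was tested on simulated data for ST-1dEB against LT-1dEB with 200 of 21935 genes changed. Of these, 83.5% were recovered at a log2 change of 1 and 96% at 2. False calls were 10 of 177 at a change of 1 and 8 of 200 at 2. Recovery was not counted separately for snoRNA genes, which agreed less well between libraries than all genes. These rates therefore cannot be applied to the snoRNA genes.

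Named genes were, per comparison and class, up to 4 rises and 4 falls past the threshold (higher group at 10 TPM or more, groups not overlapping), the 6 of each class with the highest mean, those of rRNA cleavage and imprinted loci, the largest changes of each list, and hosts. Snord22 was named by its mean level and was not on the list of rRNA cleavage genes. Snord33 and Snord35a in LT and single values given beside a named result were chosen after their values were seen. Alternatives were a pseudocount of 0.1 TPM, no filter, a minimum of 5 TPM, protein-coding scaling, a replicate block, each library left out, and, chosen after seeing the data, RT-1dEB left out.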

Additional observations from a re-analysis of the deposited data

Results flagged for a closer look

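Listed here are the named snoRNA genes whose line effect differed between the stages by the limma interaction test at an adjusted p under 0.05. The naming rule took those at 10 TPM or more in the higher group, up to 4 per direction and class. The list is therefore partial. The test passed 12 snoRNA genes for ST minus LT (6 higher and 6 lower) and 32 for RT minus ST (23 higher and 9 lower). Values are the effect at 1dMeioLC minus that at 1dEB on the log2(TPM + 1) scale, and for a gene with a group listed at 0 the size depends on the pseudocount. For ST minus LT the values were 7.31 for Snord64, 2.53 for Snord87, -1.28 for Snord22, -2.35 for Snord99, -2.96 for Snora33, -3.27 for Snord55 and -3.51 for Snord60. For RT minus ST the H/ACA values were 4.89 for Snora33, 3.4 for Snora61, 2.68 for Snora26, 2.59 for Snora28 and -1.63 for Snora3. The C/D values were 4.60 for Snord99, 4.59 for Snord14c, 4.41 for Snord60, 3.87 for Snord55, -1.73 for Snord35a, -2.97 for Snord64 and -3.98 for Snord73a. Both contrasts share the 4 ST libraries. The calls of Snord64, Snord87 and Snord22 for ST minus LT, and of Snora33, Snora26, Snord99, Snord14c, Snord60 and Snord55 for RT minus ST, held under each alternative run, and the others were lost under at least 1.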

How the results depend on the processing

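Of 144 named calls, 80 held under every alternative run and 64 were lost under at least 1. A minimum of 5 TPM ended 0 of them, no filter and a pseudocount of 0.1 TPM ended 22 each, protein-coding scaling 16 and the replicate block 7. RT-1dEB left out (chosen after seeing the data) ended 12 of 101, and leaving out 1 library ended 182 of 652. Same-numbered replicates did not deviate together (r from -0.034 to 0.043 over 28 group pairs), and the replicate block gave counts of called snoRNA genes of 57 in the LT stage comparison (58 without it) and 10 in ST against LT at 1dEB (10 without it). Depth is unknown, and 53 of 115 genes average under 10 TPM.

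Without a filter, called snoRNA genes were 9 for ST against LT at 1dMeioLC and 15 for LT-1dMeioLC against PGC-1dMeioLC, and other small structural RNAs in the LT stage comparison were 4, as with 5 TPM, which gave 2 for ST against LT at 1dEB. Protein-coding scaling gave 21 for RT against LT at 1dEB and 12 assembly genes for ST against LT at 1dEB. It reversed Snora57 (0.10) and Snora68 (0.63) in RT against ST at 1dEB, Snord52 in the LT stage (-0.52), RT stage (-0.68), E10.5PGC against LT-1dEB (-0.26) and RT minus ST interaction (-0.66), and Snord104 (-1.04) and Snord78 (-0.78) in the RT stage. The cause was not tested.

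With 1 library left out, so that a lone library is assumed to vary like the other groups, called snoRNA genes ranged from 6 to 11 (ST against LT), 25 to 28 (RT against ST) and 20 to 27 (RT against LT) at 1dEB, and from 9 to 17, 14 to 28 and 4 to 15 at 1dMeioLC. They ranged from 48 to 54 in the LT stage, 49 to 61 in ST, 35 to 46 in RT, 28 to 30 in cultured PGCs, 10 to 16 for LT-1dMeioLC against PGC-1dMeioLC, 29 to 35 for E10.5PGC against LT-1dEB, and 8 to 17 and 24 to 38 in the ST minus LT and RT minus ST interactions. Other small structural RNAs ranged from 3 to 5 in the LT stage, and host genes from 12 to 15 for ST against LT at 1dMeioLC.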

Other observations

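Pairs of libraries with nearly equal values were unevenly spread. In PGC-1dMeioLC 11 of the 73 snoRNA genes above 0 in both libraries agreed within 1%, such as Snord13 at 30.9 TPM in both, while E10.5PGC and ST-1dEB had 2 each, ST-1dMeioLC had 1 and the other groups had 0.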
